A study of Drosophila melanogaster with 51 samples.

Results

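The pericentric heterochromatin of chromosome arm 2L, in wing imaginal discs of Drosophila melanogaster larvae, is described here through the places where HP1 and H3K9me3 were called. Its members are the peaks on 2L whose midpoint lies at or beyond position 22013558 of the dm6 build, up to 23513558, the largest coordinate on 2L in the lists or the gene table. They number 238 of the 3680 peaks in the HP1 and H3K9me3 lists, 79 of 1435 for HP1 and 159 of 2245 for H3K9me3. The stretch holds 60 annotated genes, 37 of them protein-coding. The members were chosen by position alone.

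Pericentric heterochromatin is the compacted, repeat-rich chromatin beside the centromere. There histone H3 is methylated at lysine 9, and the chromodomain of heterochromatin protein 1a (HP1a) binds that mark. Drosophila heterochromatin also holds essential genes, and light (lt) on 2L is a textbook case of a gene whose normal expression depends on a heterochromatic setting.

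CUT&RUN uses an antibody to bring a nuclease to its target in intact nuclei, and the released DNA is sequenced. The series has 51 libraries in 18 groups, each library made from at least 20 discs of female third-instar larvae kept at 25 °C. The lists are of the whole series, so no library has a value of its own here, depth per library is unknown, and genotypes were not compared.

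All 79 HP1 peak names carry the words ywdf, sup and merge. Of the H3K9me3 names, 153 carry HWT, pel and rep1, and 6 carry ywdf, pel and rep2. The words sup and pel are not explained in the sources used here. HWT is the label for larvae that lack the native histone gene cluster on both homologues (ΔHisC, with twi-Gal4 and UAS-2xEYFP, in a yw background) and carry a wild-type H3.2HWT transgene. What ywdf stands for, and so the genotype behind those names, is not given in the sources used here. Anti-HP1a profiles in the series come from HWT, K9R, HP1a-chromo and HP1a-control larvae, the last from w1118; Df(2L)BSC228/CyO females crossed to yw males. The HP1 and H3K9me3 lists therefore come mostly from different sources, so that a place listed for 1 alone may differ in genotype, in what sup and pel stand for or in cutoff, and these cannot be told apart. The cutoffs differed too, since −log10 q-values began at 5.02 for HP1 and at 1.38 for H3K9me3.

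HP1 peaks covered 82.5 kb, or 5.50%, of the 1500 kb stretch, and H3K9me3 peaks covered 89.2 kb, or 5.95%. The rest of 2L was covered over 0.232% by HP1 and 0.0209% by H3K9me3, with 97 and 8 peaks. Peaks of either list covered 138 kb of the pericentric stretch, and 33.2 kb lay under both lists. That common sequence was 40.3% of all bases under HP1 and 37.3% of those under H3K9me3. HP1 peaks ranged from 129 to 4172 bp with a median of 556 bp, and H3K9me3 peaks from 6 to 11147 bp with a median of 404 bp. Fold enrichment, the authors' ratio of observed to expected signal for the call a peak belongs to, had a median of 7.24 (2.90 to 18.9) for HP1 and 4.95 (2.74 to 22.7) for H3K9me3.

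Peaks came in clusters with empty stretches between them. The 79 HP1 peaks carried 55 call names and the 159 H3K9me3 peaks 137, since 14 HP1 calls and 20 H3K9me3 calls were listed in several pieces. Empty stretches of 50 kb or more numbered 5 and measured 71.5 to 128 kb. Repeats and mappability were not used here, so an empty stretch cannot be told apart from one where reads could not be placed.

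**Figure D1:**
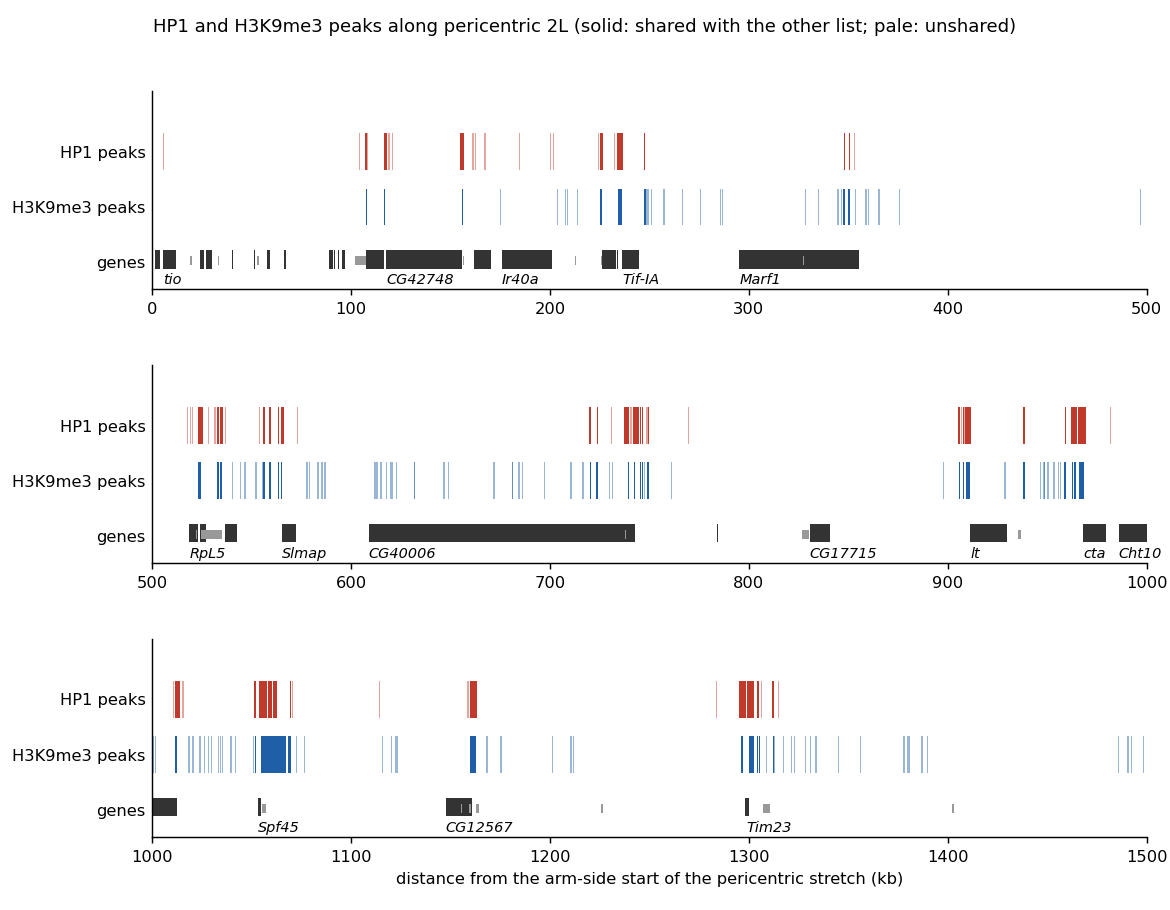
HP1 peaks, H3K9me3 peaks and annotated genes (dark boxes protein-coding, grey boxes other genes) along the pericentric stretch, in panels of 500 kb, with distance from its arm-side start in kb on the x axis. Solid peaks share at least 1 bp with the other list and pale ones do not. HP1 peaks sit in clusters at and between genes. Peaks of both lists lie in gene-free stretches, and H3K9me3 peaks, listed at a lower cutoff, also lie along the body of CG40006.

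The arm-side start of the stretch held little of either mark. The HP1 peaks nearest to the limiting position lay 5.52, 104 and 108 kb inside it, with fold enrichments of 10.4, 3.77 and 9.68, and 134, 216 and 218 kb outside it, with fold enrichments of 11.2, 7.03 and 3.84. The nearest H3K9me3 peaks inside lay 108, 117 and 156 kb from it, with fold enrichments of 4.13, 7.50 and 5.53. Outside, the nearest were 1806, 1908 and 1909 kb away, with fold enrichments of 5.37, 5.37 and 5.39. H3K9me3 was thus not listed over the first 107 kb, where HP1 peaks were few, and for that stretch the name heterochromatin describes a position. That interval wholly held 12 protein-coding genes, none with a peak of either list in its body. One of them, tio, at 22019208 to 22025734, encodes a zinc-finger protein related to Teashirt. The first HP1 peak, 236 bp wide at 22018961 to 22019196, ended beside its lower-coordinate end.

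Genes and gene deserts were covered differently by the lists. A desert was taken as a stretch of at least 20 kb with no annotated gene of any kind. The 15 deserts took up 933 kb, or 62.2% of the stretch, and gene bodies 448 kb. HP1 covered 7.41% of gene bodies and 3.66% of deserts, a ratio of 2.02. H3K9me3 covered 4.92% of gene bodies and 6.06% of deserts, a ratio of 0.812. The 119 kb in shorter gaps between genes were covered most, over 12.8% by HP1 and 8.88% by H3K9me3. With protein-coding genes alone, HP1 covered 12.4% of shorter gaps, while H3K9me3 covered 5.48% of them and 6.66% of deserts, so the H3K9me3 order turned round. HP1 then covered 6.20% of gene bodies and 4.55% of deserts. The ratios of gene bodies to deserts were then 1.36 for HP1 and 0.652 for H3K9me3. Of all H3K9me3-covered bases 63.4% lay in deserts, against 41.4% of HP1-covered bases. With deserts of at least 50 kb the ratios were 3.38 for HP1 and 1.08 for H3K9me3, so the H3K9me3 direction turned round. Without the widest peak of the list in question they were 1.89 for HP1 and 0.954 for H3K9me3, a leave-out not planned beforehand. With a start 0.5 Mb farther into the arm they were 1.40 and 0.560. Regions of 1 list are not replicates, and these differences were not tested.

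Counted by peak, 43 of 79 HP1 peaks (54.4%, exact binomial 95% interval 42.8 to 65.7) had at least 1 bp in an annotated gene, while 68.1% of the HP1 list on the main chromosomes did. For H3K9me3 it was 52 of 159 (32.7%, 25.5 to 40.6), and 42.9% over the whole list. Intervals cover counting error only. By the middle base of the peak the shares in genes were 40.5% for HP1 and 28.3% for H3K9me3.

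The deserts differed widely among themselves. The longest, 163 kb between Marf1 and RpL5 at 22368797 to 22532278, held 1 HP1 and 5 H3K9me3 peaks, with 0.193% and 0.837% of its bases covered. The next, 97.4 kb from the pseudogene CR41519 to the end of the coordinates used, held no HP1 and 5 H3K9me3 peaks, over 1.30% of its bases. Between the pseudogenes CR42530 and CR41519, a desert of 91.7 kb held 2 HP1 peaks and 15 H3K9me3 peaks, over 0.452% and 6.16%. In the 90.4 kb between lncRNA:CR43242 and CG12567, 5 HP1 and 8 H3K9me3 peaks covered 6.44% and 15.6%. The longest deserts were thus not the most covered ones. The highest shares, singled out after the values were seen, were 23.5% for HP1 and 22.6% for H3K9me3 in the 31.3 kb ahead of cta, at 22950477 to 22981815.

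At the differing cutoffs of the lists, both were densest at the ends of genes, HP1 much more steeply so. At a −log10 q-value of at least 10 in both lists, a gene end was met by 38.7% of 62 HP1 peaks. For H3K9me3 it was 27.1% of 48 peaks. Here an end counted as met at up to 200 bp. Without that limit on the q-value the shares were 30.4% and 9.43%, so by peak the gap was smaller at the common cutoff. These were near the 28.0% and 9.04% of the HP1 and H3K9me3 lists as a whole. Whole-list shares at the common cutoff were not computed. Coverage by distance was not computed at that cutoff. The gene table gives no strand, so the start and the stop of a gene cannot be told apart. Within 0.5 kb of a gene end HP1 covered 26.4% of the bases inside genes and 27.3% of those between genes, and H3K9me3 covered 9.87% and 16.2%. At 2 to 5 kb the HP1 shares were 4.15% inside and 10.5% between genes, and those of H3K9me3 2.32% and 8.69%. At 10 to 20 kb HP1 covered 1.88% and 0.785%, whereas H3K9me3 covered 5.63% and 7.20%. Beyond 20 kb from any gene end HP1 covered no base inside genes and 0.0661% between them, against 5.33% and 1.74% for H3K9me3. The bases inside genes in this class, 88.9 kb, all belong to a single gene, CG40006, so these inside values describe that gene. Of the H3K9me3 peaks there, only that of 84 bp at 22645190 to 22645273 reached a −log10 q-value of 5.02, the lowest HP1 value.

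Bases within 1 kb of a gene end made up 11.5% of the stretch, yet 50.2% of the bases under HP1 and 20.5% of those under H3K9me3 lay there. Bases at 10 kb or more were 52.2% of the stretch and held 3.78% of the HP1 and 35.9% of the H3K9me3 bases. Of the 79 HP1 peaks 71 lay within 10 kb of a gene end, and of the 159 H3K9me3 peaks 84. The median distance to the nearest gene end was 1.28 kb for HP1 and 9.22 kb for H3K9me3. HP1 peaks in deserts also lay nearer to the edges, with 17 of 30 within 5 kb of a gene end, against 22 of 94 H3K9me3 peaks in deserts. These peaks carry 23 HP1 and 82 H3K9me3 call names. The share of desert bases within 5 kb of a gene end was not computed.

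**Figure D2:**
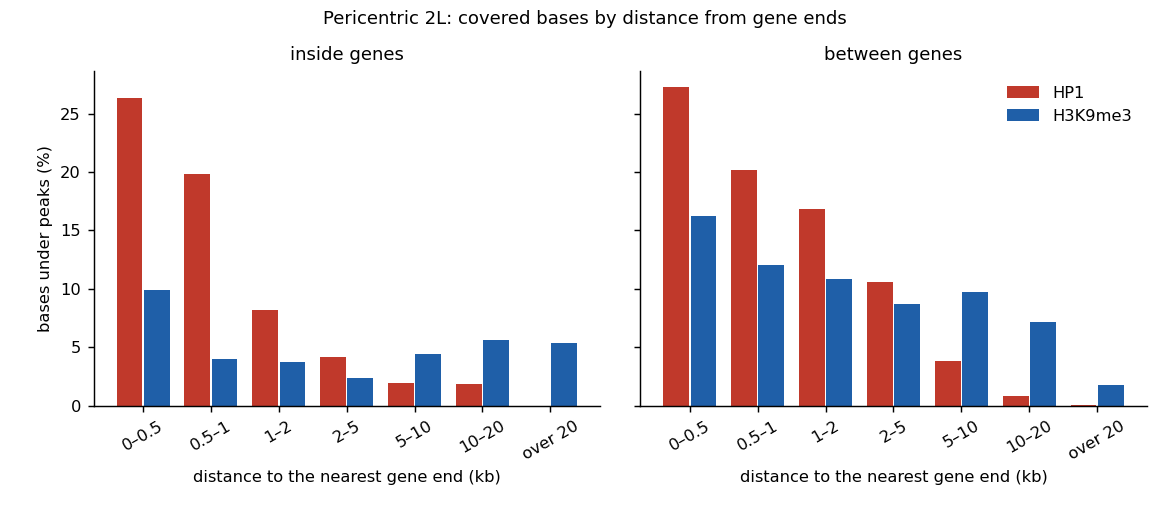
Percent of bases under HP1 and H3K9me3 peaks in classes of distance to the nearest annotated gene end in kb, inside genes (left) and between genes (right). HP1 stands at 26.4% and 27.3% in the nearest class and near 0 beyond 20 kb. H3K9me3, listed at a lower cutoff, keeps 5.33% inside genes there. All bases inside genes beyond 20 kb belong to CG40006.

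The part of the H3K9me3-covered bases that also lay under HP1 was larger near gene ends. Between genes, it was 96.1% within 0.5 kb of a gene end, 54.9% at 2 to 5 kb and 2.03% at 10 to 20 kb. Inside genes the shares were 92.0% within 0.5 kb and 22.6% at 2 to 5 kb. The part of the HP1-covered bases under H3K9me3 did not follow distance in this way. Inside genes it was 34.5% within 0.5 kb of an end, 8.44% at 1 to 2 kb and 51.0% at 5 to 10 kb, and between genes 57.2% within 0.5 kb and 62.3% at 5 to 10 kb.

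Of the 37 protein-coding genes, 22 (59.5%, 42.1 to 75.2) held HP1 somewhere in the body and 12 (32.4%, 18.0 to 49.8) held H3K9me3, while 3.71% and 1.26% of all 13946 protein-coding genes did. All 12 genes with H3K9me3 also held HP1, 10 held HP1 alone, and 15 held neither. When a gene had to have 10% of its body covered, 11 genes held HP1 and 2 held H3K9me3. HP1 lay within 200 bp of exactly 1 end in 19 of the 37 genes and of both ends in 2, RpL21 and RpL5. Of the 16 genes with no HP1 at an end, Marf1 and Ir40a had HP1 peaks farther inside. H3K9me3 lay within 200 bp of 1 end in 12 genes, of both ends in 1, lt, and of neither in 24. Some genes named here and below, such as Ir40a, CycK and Nubpl, fall outside the naming rule and were chosen after their values were seen.

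The genes of ribosome production, RpL5, RpL21 and Tif-IA, each had HP1 at an end. RpL5, at 22532279 to 22536884, encodes a protein of the large ribosomal subunit. HP1 covered 32.9% of it in 3 peaks, and H3K9me3 2.54%. Its higher-coordinate end lay under an HP1 peak of 2239 bp and an H3K9me3 peak of 1626 bp, both of which ran on into CG17490, with fold enrichments of 13.7 and 13.8. HP1 covered 44.4% and H3K9me3 24.8% of the body of CG17490. RpL21, another large-subunit gene at 22247111 to 22247875, had 82.7% of its 765 bp under HP1 and none under H3K9me3. The same HP1 peak, 2892 bp at 22247243 to 22250134, reached the end of Tif-IA, which encodes an initiation factor of RNA polymerase I. The H3K9me3 peak of 2033 bp at 22247901 to 22249933 filled the gap between RpL21 and Tif-IA and entered Tif-IA by 58 bp, with a fold enrichment of 15.7. The 4 genes thus stood in pairs with 1 joint stretch of HP1 and H3K9me3 between or over their facing ends, which cannot be assigned to either gene of a pair.

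In Spf45, a splicing factor gene at 23066874 to 23068386, HP1 covered 73.8% and H3K9me3 15.1% of the body. Its HP1 peak was the widest of the stretch, 4172 bp at 23067271 to 23071442 with a fold enrichment of 16.6, and also covered the whole of lncRNA:CR43242. Inside that peak began the widest H3K9me3 peak, 11147 bp at 23069864 to 23081010. It and a piece of 1529 bp that reached into Spf45 belong to a single call, with the highest H3K9me3 fold enrichment of the stretch, 22.7.

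Tim23, a mitochondrial protein import gene at 23312465 to 23313578, and Gpb5, which encodes a glycoprotein hormone subunit at 23311700 to 23312464, lie end to end. HP1 covered 61.7% of Tim23 and 60.8% of Gpb5, and neither held H3K9me3. Their HP1 peaks of 3498 and 3669 bp are pieces of 1 call of 7.89 kb that extended outward from the pair. In the flanks of that pair 4 H3K9me3 peaks, 257 to 1019 bp wide, lay under HP1.

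The long-known heterochromatic genes lt and cta carried both marks at the lower-coordinate end. lt, at 22924795 to 22943135, encodes the fly Vps41 protein of vesicle traffic to lysosomes. An HP1 peak of 2998 bp with a fold enrichment of 12.9 spanned that end and covered 3.66% of the body. An H3K9me3 peak of 754 bp ended just before the gene, and another of 1437 bp at 22941628 to 22943064, with no HP1, took up 7.83% of the body at the other end. cta, at 22981816 to 22992951, encodes a G protein alpha subunit of cell shape change in gastrulation. It had 11.8% of its body under an HP1 peak of 4113 bp with a fold enrichment of 14.0, and 4.25% under an H3K9me3 peak of 1533 bp with a fold enrichment of 10.3.

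Cht10, a chitinase gene also listed as Cht3, at 22999574 to 23025915, and CG12567, at 23161122 to 23174484, had HP1 at the higher-coordinate end. HP1 covered 6.34% of Cht10 and H3K9me3 5.51%. Of its 3 H3K9me3 peaks, that of 305 bp lay wholly under HP1, and those of 871 and 275 bp lay deeper in the gene with no HP1. At CG12567 HP1 covered 13.7% of the body and H3K9me3 4.77%. Its 3 HP1 peaks, pieces of 1 call, had the highest HP1 fold enrichment of the stretch, 18.9, and the second widest H3K9me3 peak, 2512 bp at 23173976 to 23176487, had 2471 bp under one of them.

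In the longest gene H3K9me3 peaks were listed along the whole body while HP1 peaks kept to 1 side, at the differing cutoffs of the lists. CG40006, at 22622417 to 22756349, is 134 kb long and held 27 H3K9me3 peaks over 6.93% of its body and 6 HP1 peaks over 6158 bp. In 5 equal segments of the gene, by increasing coordinate, H3K9me3 covered 12.6%, 3.45%, 7.30%, 3.89% and 7.45%. HP1 covered no base of the first 4 segments and 23.0% of the last. Over the higher-coordinate end ran the HP1 call with the most pieces, 5 pieces over 9.60 kb, with a fold enrichment of 16.5.

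Marf1, a gene of 60042 bp at 22308755 to 22368796 named for an RNA regulator of meiosis in mouse, held 7 H3K9me3 peaks over 5.45% of its body and 3 HP1 peaks over 2.56%. The last of its 5 segments held all 3 HP1 peaks, over 12.8% of the segment, and 5 of the H3K9me3 peaks, over 23.7%. The first 2 segments held no peak. CG42748, 35.0 kb long at 22131221 to 22166221, differed from these, with 3 HP1 peaks of 1 call over 5.54% from its lower-coordinate end, and no H3K9me3. Ir40a, a 24.9 kb gene for an ionotropic receptor of humidity sensing, had 2 HP1 peaks over 2.48% of its body and no H3K9me3. CG17493, at 22550064 to 22556295, had an HP1 peak of 610 bp at its lower-coordinate end with a fold enrichment of 14.4. Its single H3K9me3 peak, of 236 bp, was one of those named ywdf and lay apart from it.

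HP1 without H3K9me3 in the body was found in 10 genes, which were CG3651, CG42748, Clamp, CG3635, Ir40a, Nubpl, RpL21, Slmap, Gpb5 and Tim23. Of these, 7 lie in the arm-side 0.25 Mb, which holds 22 of all 37 protein-coding genes of the stretch. Clamp, the gene of a zinc-finger protein that binds GA repeats in dosage compensation, had 22.8% of its body under an HP1 peak of 2244 bp. CG3635 had 11.2% under 3 HP1 peaks. For CG3651, Nubpl, RpL21 and Slmap an H3K9me3 peak did lie within 200 bp of an end.

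The longest protein-coding genes with no peak of either list were CG17715 (10322 bp), tio (6527 bp), CG31601 (3151 bp), CG31693 (2145 bp) and Grl40a (1913 bp). CG17715, at 22844220 to 22854541, lies in an empty stretch of 128 kb at 22782954 to 22911204 that also holds CG40439. The others lie in the first 107 kb. Of CG40006, lt, cta, RpL5, Cht10 and Tim23, the long-known genes of the naming rule that lie in the stretch, none was without HP1. This was common to most genes there, since beyond the first 107 kb only dunk, CG40439 and CG17715 among protein-coding genes held no HP1.

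**Figure D3:**
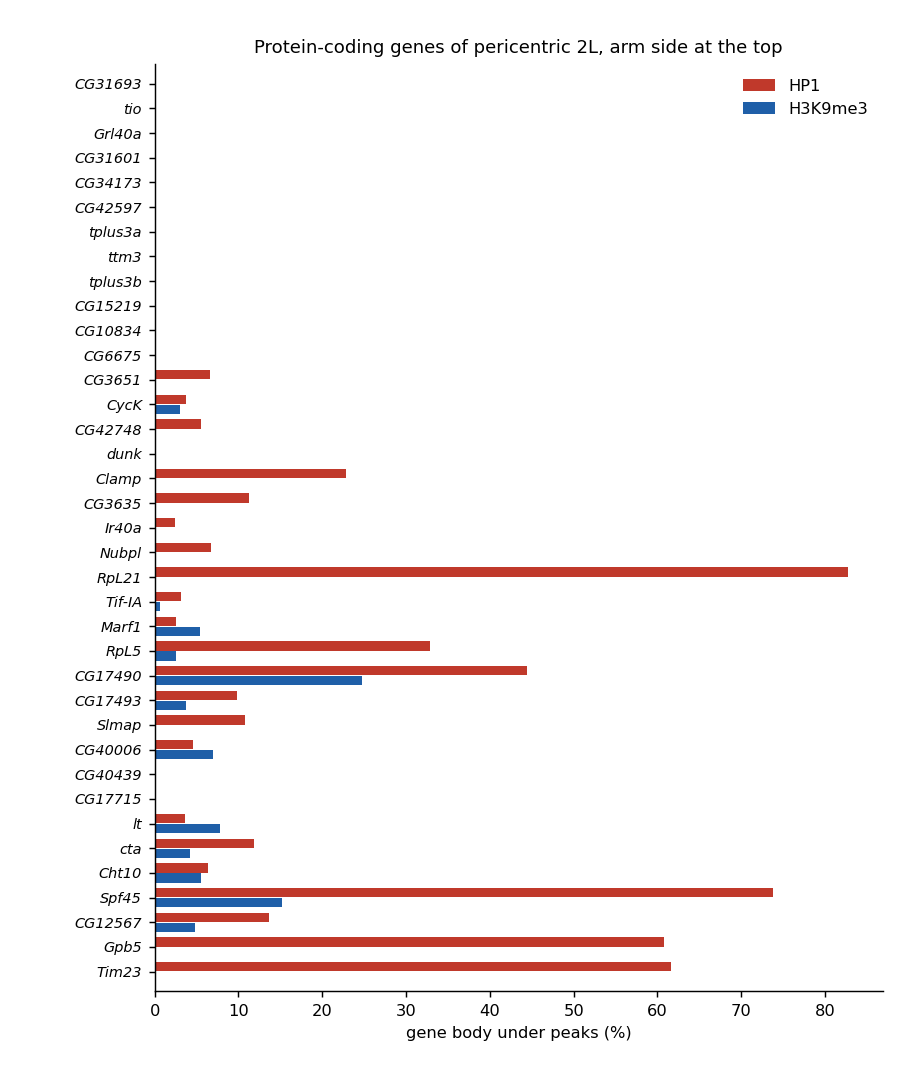
Percent of the body of each of the 37 protein-coding genes under HP1 and under H3K9me3 peaks, from the arm side at the top to the centromere side at the bottom. The first 12 genes have none, and RpL21 (82.7%), Spf45 (73.8%), Tim23 (61.7%) and Gpb5 (60.8%) stand highest for HP1.

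Of the 23 other genes, 10 held HP1 and 7 H3K9me3. Among 14 long non-coding RNA genes 9 held HP1 and 6 held both, and of 7 pseudogenes 1 held HP1 and 1 other H3K9me3. The shares over all such genes of the genome were not computed, so these counts are a listing only. Several of the long non-coding RNA genes overlap a protein-coding gene, and a peak there counts for both. The gene lncRNA:CR46268, 10.2 kb long at 22538230 to 22548452, overlaps CG17490 and was also chosen after its values were seen. It had 38.2% of its body under 5 HP1 peaks and 10.9% under 3 H3K9me3 peaks.

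Coverage was uneven along the stretch, with no steady change from arm to centromere. In 0.25 Mb steps from the arm side HP1 covered 5.99%, 0.614%, 9.06%, 5.78%, 7.52% and 4.04%. H3K9me3 covered 3.04%, 2.74%, 9.03%, 4.78%, 11.8% and 4.26%. Both were high in the third and the fifth step and lowest in the second. Without the widest peak of each list, which lies in the fifth step, that step had 5.85% for HP1 and 7.36% for H3K9me3, below the third step in both lists. The HP1 values rest on 19, 3, 26, 11, 13 and 7 peaks, and only the third step reached 20. Of the H3K9me3 values, those of the first and the second step rest on 13 and 18 peaks, and the others on 20 to 48.

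The centromere-side 0.75 Mb was covered over 5.78% by HP1 and 6.95% by H3K9me3, and the arm-side 0.75 Mb over 5.22% and 4.94%, ratios of 1.11 and 1.41. Without its widest peak each ratio was smaller, 1.00 for HP1 and 1.11 for H3K9me3, a leave-out chosen after the data were seen. The ratios also depended on where the stretch begins. With a start 0.5 Mb closer to the centromere the HP1 ratio was 0.779, so its direction turned round, and with a start 0.5 Mb farther into the arm the ratios were 3.49 for HP1 and 5.17 for H3K9me3. The centromere-side 0.75 Mb held 9 protein-coding genes and gene bodies over 12.9% of its length, the arm-side 28 genes over 46.8%, so gene density moved with distance and its part in the ratios was not tested. Across 15 steps of 0.1 Mb the HP1 and H3K9me3 shares had a Spearman rho of 0.733, a description of neighbouring stretches of 1 chromosome. Peak width and fold enrichment had a Spearman rho with distance from the arm between −0.0935 and 0.183 in either list, over 79 HP1 and 159 H3K9me3 peaks.

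At the differing cutoffs of the lists, the ends of the stretch differed in which list was present. In the first 0.1 Mb there was 1 HP1 and no H3K9me3 peak. In the second there were 12 HP1 peaks over 9.29% and 4 H3K9me3 peaks over 1.54%. In the last 0.1 Mb there were 5 H3K9me3 peaks and no HP1 peak. The last HP1 peak ended 185 kb before the end of the coordinates, at 23328430, and 18 H3K9me3 peaks lay beyond it. Most of these 18 had −log10 q-values below 5.02, the lowest in the HP1 list. Only those beginning at 23347022, 23499202 and 23505815, the last named ywdf, reached 10.

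**Figure D4:**
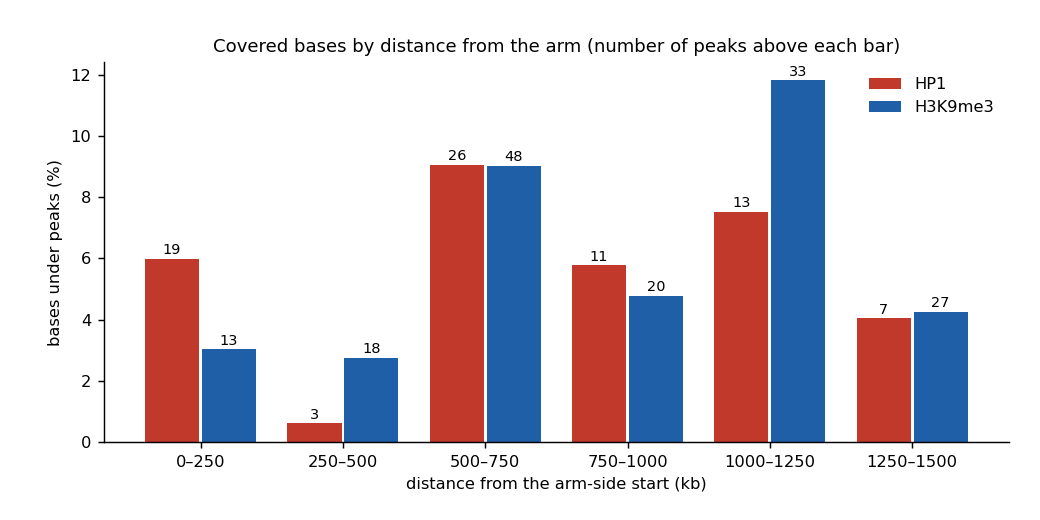
Percent of bases under HP1 and H3K9me3 peaks in steps of 0.25 Mb from the arm-side start (x axis in kb), with the number of peaks above each bar. H3K9me3 stands highest in the fifth step (11.8%, or 7.36% without its widest peak) and HP1 in the third (9.06%).

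A peak was called shared if at least 1 bp of it lay under the other list. Of the HP1 peaks 42 of 79 (53.2%, 41.6 to 64.5) were shared, and 32.1% of the HP1 list on the main chromosomes. Of the H3K9me3 peaks 46 of 159 (28.9%, 22.0 to 36.6) were shared, and 22.3% of the whole list. None of the 6 H3K9me3 peaks named ywdf was shared. With at least 50% of the peak covered the shares were 30.4% for HP1 and 25.8% for H3K9me3. With a −log10 q-value of at least 10 in both lists they were 30.6% of 62 HP1 and 45.8% of 48 H3K9me3 peaks. Neither alternative was computed over the whole lists.

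By distance, 31.6% of the HP1 peaks were shared in the arm-side 0.25 Mb (12.6 to 56.6), and 57.1% to 66.7% in each of the other 5 steps. These rest on few peaks, the 57.1% on 4 of 7 (18.4 to 90.1) and the 66.7% on 2 of 3 (9.43 to 99.2). For H3K9me3 the share ranged from 2 of 18 peaks in the second step to 10 of 20 in the fourth. The intervals of these steps overlap.

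Shared peaks were the wider ones for HP1 as for H3K9me3. Because 1 bp under the other list was enough, a wide peak counted as shared more readily. The part of this in the width difference was not tested. The median width of HP1 peaks was 1173 bp for shared (quartiles 484 and 2533 bp) and 364 bp for unshared ones (265 and 675 bp). Shared H3K9me3 peaks had a median of 608 bp (304 and 909 bp), and unshared ones 359 bp (236 and 547 bp). Of the 26 HP1 peaks over 1 kb, 24 were shared, and of the 14 such H3K9me3 peaks, 10. Median fold enrichment was 8.34 in shared and 5.48 in unshared HP1 peaks, and 7.02 in shared and 4.54 in unshared H3K9me3 peaks. The ranges overlapped in all 4 cases, and pieces of 1 call carry the same fold enrichment.

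**Figure D5:**
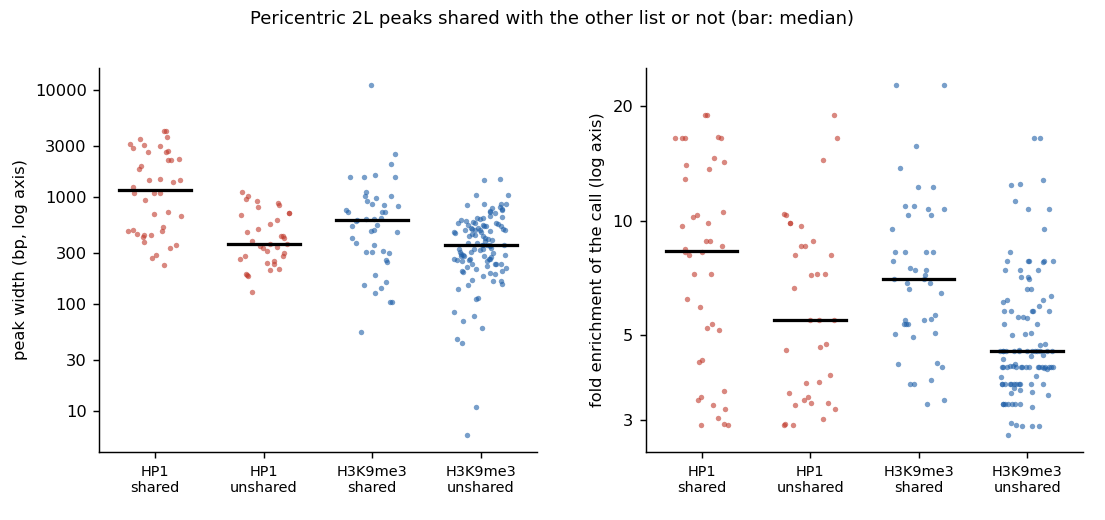
Width in bp (left) and fold enrichment of the call (right), both on log axes, of each shared and unshared HP1 and H3K9me3 peak, with medians as bars. Median widths are 1173 and 364 bp for HP1 and 608 and 359 bp for H3K9me3.

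The share of peaks that met the other list was highest among those at gene ends, though deserts held as many shared HP1 peaks and more shared H3K9me3 peaks. Of the HP1 peaks 24 of 79 (30.4%, 20.5 to 41.8) lay within 200 bp of a gene end, near the 28.0% of the whole HP1 list. For H3K9me3 it was 15 of 159 (9.43%, 5.38 to 15.1), near the 9.04% of the whole list. At gene ends 18 of 24 HP1 peaks and 14 of 15 H3K9me3 peaks were shared. In gene bodies away from ends 5 of 20 HP1 peaks and 7 of 39 H3K9me3 peaks were shared. In deserts it was 18 of 30 HP1 and 19 of 94 H3K9me3 peaks, and in shorter gaps 1 of 5 and 6 of 11.

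Put the other way, 18 of 42 shared HP1 peaks (42.9%, 27.7 to 59.0) lay at a gene end, and 6 of 37 unshared ones (16.2%, 6.19 to 32.0). For H3K9me3 it was 14 of 46 shared (30.4%, 17.7 to 45.8) and 1 of 113 unshared peaks (0.885%, 0.0224 to 4.83). Any base of a peak counted for both definitions, so wide peaks entered them more readily. Judged by its middle base, a gene end was met by 7 of 42 shared against 1 of 37 unshared peaks for HP1. For H3K9me3 it was 7 of 46 shared against 0 of 113 unshared peaks, and the exact 95% interval of the 0 reaches 3.21%. The part of width in these shares was not tested.

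The regions deposited as background carry yw and gfp in their name, and the yw anti-GFP libraries have the genotype entry GFP-HP1a/+, so it is unclear whether tagged HP1a was present. Of these regions, 18 of 500 lay here, over 12.7 kb and all outside genes. No HP1 peak and 1 H3K9me3 peak touched one. A run of 10 background regions, with fold enrichments of 2.48 to 31.2, lay in a 37.2 kb interval at 23090558 to 23127752 that held no HP1 or H3K9me3 peak. The background list is titled a blacklist. Whether its regions were taken out of the peak lists is not given in the sources used here. The small overlap and the empty interval therefore cannot be read as results about the peaks.

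The pericentric stretches of 3L and 3R were taken as the 5.1 Mb and 4.6 Mb beside the centromere, and the choice of these sizes bears on every share. HP1 covered 5.50% of the 2L stretch, 3.52% of that of 3L and 1.13% of that of 3R. H3K9me3 covered 5.95% on 2L, 8.16% on 3L and 2.24% on 3R. The share of H3K9me3 peaks that met HP1 was 28.9% on 2L, 13.2% on 3L (10.8 to 15.9) and 14.2% on 3R (9.58 to 20.0). For HP1 peaks it was 53.2% on 2L, 46.8% on 3L (39.2 to 54.5) and 37.3% on 3R (24.1 to 51.9). Bases within 1 kb of a gene end were covered by HP1 over 24.0% on 2L, 24.4% on 3L and 7.44% on 3R, and by H3K9me3 over 10.6%, 19.9% and 2.28%. Bases at 10 kb or more were 52.2% of the stretch on 2L, 73.2% on 3L and 80.0% on 3R, and HP1 covered 0.398%, 0.917% and 0.234% of them. A lower HP1 share far from gene ends was thus seen on each chromosome, and no difference between chromosomes was tested.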

How the data were processed

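Only peak lists were analysed: HP1, H3K9me3 and background regions, 3 deposited lists in total. Build dm6 and the programs MACS2 2.1.2, bedtools 2.26, Bowtie2 2.3.4.1 and SAMtools 1.10 are listed, with no roles, per the submitters' processing notes. How calls were combined is not given in the sources used here. The authors deposited for each interval a score, a fold enrichment (ratio) and a −log10 q-value of its call, beside a p-value and a summit offset that were not used. Names of HP1 and H3K9me3 peaks carry q30 and dupsKept, and background names q5 and dupsRemoved, per the deposited lists.

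Gene coordinates came from RefSeq (assembly Release 6 plus ISO1 MT, which is dm6), without strand. Overlaps, covered bases and exact binomial (Clopper-Pearson) intervals were computed with Python 3.11.15, pandas 2.3.3 and scipy 1.17.1, and the interval functions were tested on simulated data. No test was run, since peaks are not replicates. Named were the 12 protein-coding genes with most covered bases, the 5 longest with no peak, long-known genes (lt, cta, RpL5, Cht3, Tim23, dbr, Pzl, CG40006), the 10 with ends at the widest shared peaks, the widest and most enriched peaks, and the 4 longest deserts. dbr and Pzl lie outside the stretch. Members, lists and rules were chosen with earlier results of these data known. The limits of the 3L and 3R stretches follow earlier work on these lists. Alternatives covered overlap, q-value, joined calls, reach, deserts, gene set, limits, source and the widest peak.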

Additional observations from a re-analysis of the deposited data

How the results depend on the processing

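No paired analysis was possible because each list holds 1 set of intervals with nothing measured per replicate. Sequencing depth is unknown. Without the 6 H3K9me3 peaks named ywdf and rep2, 30.1% of H3K9me3 peaks were shared and 11 protein-coding genes held H3K9me3. All other H3K9me3 peaks here are named rep1, and all HP1 peaks merge. Of 71 alternative values, 56 stayed within the 95% interval or within 1.5 times of the reported value, 13 moved farther and 2 turned direction. With at least 50% of the peak covered, shared HP1 peaks were 30.4%. With the stricter q-value shared HP1 peaks were 30.6%, shared H3K9me3 peaks 45.8% and H3K9me3 peaks at gene ends 27.1%. HP1 peaks at gene ends were then 38.7%, which stayed within the 95% interval of the reported value. By the middle base, HP1 peaks in genes were 40.5%, HP1 peaks at gene ends 10.1% and H3K9me3 peaks at gene ends 4.40%. With deserts of at least 50 kb, coverage of genes over deserts was 3.38 for HP1 and 1.08 for H3K9me3, which turned the H3K9me3 direction. With the stretch begun 0.5 Mb closer to the centromere, the HP1 ratio of centromere side to arm side was 0.779, which turned its direction, and 12 protein-coding genes held HP1. With the start 0.5 Mb farther into the arm the ratios were 3.49 for HP1 and 5.17 for H3K9me3. When a gene had to have 10% of its body covered, 11 genes held HP1 and 2 H3K9me3. Fewer genes or peaks lie in a smaller stretch. The causes of the other shifts were not tested.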
